A study of Mus musculus with 20 samples.

Results

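Genes of insulin, FOXO and mTOR nutrient sensing were followed in fibroblasts sorted from the skin of female mice that were young, old and fully fed, old and under caloric restriction, or old and fed again after restriction. The set had 10 members: Insr, Irs1, Irs2, Foxo1, Foxo3, Sesn1, Deptor, Ddit4, Sirt1 and Mtor. A member was read from the probe sets annotated to it and to no other gene, and the probe set with the greatest average across the 20 arrays stands for it. This gave 9 of the 10 members, among 17097 genes in all, from 20 probe sets. Irs2 had no probe set of its own and was not analysed here.

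Each of 4 groups held 5 mice with 1 array per mouse. The replicate numbers used here follow the order of the samples within a group and are not in the labels. Old CR-ND mice (labelled CR/ND - Old) spent 7 months on 30% caloric restriction (CR) and then 2 months on a normal diet (ND). Old CR mice (labelled ND/CR - Old) ate the normal diet for 2 months and then spent 7 months under the same restriction, up to collection. Old ND mice ate the normal diet at will for 9 months. These 15 animals began their diets when 9 months old and were killed when 18 months old. Young ND mice were 4 weeks old and ate the normal diet at will for 4 weeks, and their age at collection is not settled by the labels. All were female, and no strain, genotype or allele is given in the labels. The cells carried Pdgfra and CD34 and lacked CD45, CD117, CD24, CD31 and EpCam. RNA from 10000 cells was amplified over 20 cycles before hybridization, so the levels come after a long amplification.

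Insulin binds its receptor at the cell surface, and adaptor proteins of the IRS family pass the signal on to PI3K and AKT. AKT keeps the FOXO transcription factors out of the nucleus and releases mTOR complex 1, the kinase complex that drives protein synthesis and holds back autophagy. When food or energy is short the signal falls, FOXO factors turn on stress and catabolic genes, and proteins such as the products of Ddit4, Sesn1 and Deptor hold mTOR down. The arrays measure transcripts, while much of this pathway is controlled by phosphorylation, which an array does not see.

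Ddit4 and Insr were the members that differed among the 4 groups. Both had their highest mean level under restriction. Ddit4 rose in Old CR relative to Old ND fibroblasts, and Ddit4, Insr and Sirt1 were higher in Old CR than in Young ND fibroblasts. Between Old CR-ND and Old ND fibroblasts the largest difference was 0.26 on the log2 scale, and no member passed the test. No member passed between Old ND and Young ND. The levels are log2 values of the array signal, in which a step of 1 is a factor of 2. Intervals are 95% intervals from limma, not adjusted for the number of genes. Each difference is given with its standard error from limma's moderated test over all 17097 genes, and a difference passed where the two-sided p adjusted by Benjamini-Hochberg was under 0.05. The test for any difference among the 4 groups passed for 2 of 9 members, Ddit4 (limma, adjusted p = 0.000518) and Insr (limma, adjusted p = 0.0193), and for 12.9% of all genes. Sirt1 (limma, adjusted p = 0.0933) and Sesn1 (limma, adjusted p = 0.151) came next. Without Old CR replicate 3, or without Old CR replicate 4, that count was 1.

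**Figure D1:**
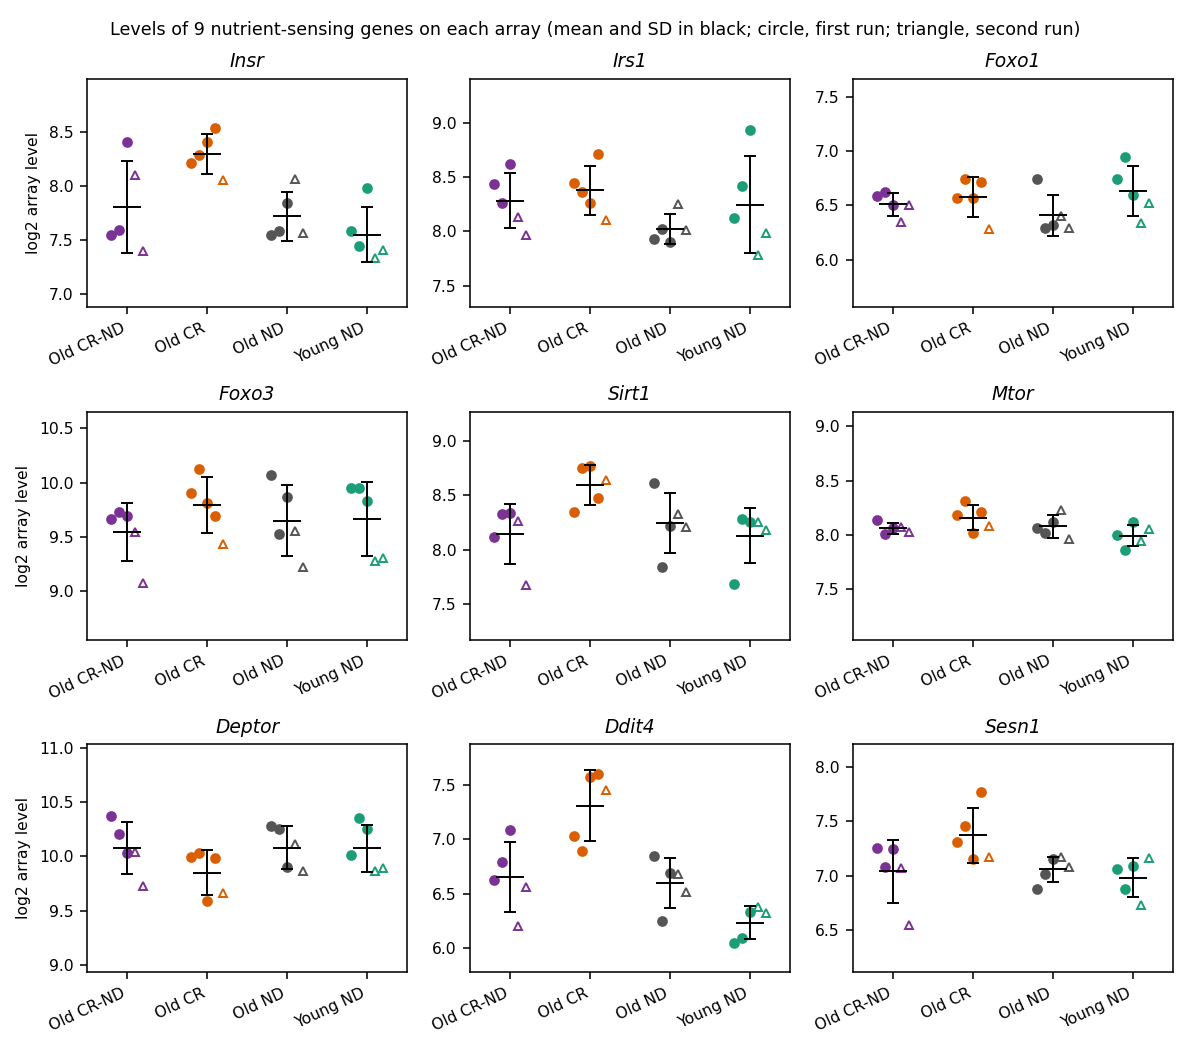
Level of each of the 9 members on every array (log2 array signal, all panels with the same span), in Old CR-ND, Old CR, Old ND and Young ND mice from left to right. Circles are arrays of the first run, triangles arrays of the second, and black marks are the mean and SD over 5 mice; the 5 Old CR points for Ddit4, at 6.89 to 7.60, lie above all Old ND points (up to 6.85) and all Young ND points (up to 6.38).

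The fibroblast label fitted the levels of Dcn and Col1a1, 2 main matrix genes of dermal fibroblasts, with group means of 13.19 to 13.28 and 12.83 to 13.33 near the top of the scale. Cd34, a marker used in the sort, averaged 11.01 to 11.30 by group. Pdgfra, the other sorting marker, averaged 5.71 to 6.20, close to the median gene level of 5.88. Ptprc, which encodes CD45, averaged 3.24 to 3.26 and Adipoq, a fat cell gene, 3.42 to 3.43, both below the lower quartile of gene levels at 4.54. Krt5, a keratin of basal epidermal cells, averaged 8.69 to 9.36 by group although the sort removed EpCam-positive cells. Cd68, a macrophage gene, averaged 6.73 to 7.76 by group and Cd74 6.33 to 6.94, both above the median gene level. The other leukocyte genes read averaged below that level. Kdr, an endothelial gene, averaged 6.13 to 7.04, and Pecam1, which encodes CD31, 5.50 to 5.70. In sorted populations of this kind a lower share of cells of a type and less RNA per cell cannot be told apart. The titles carry a number per sample whose meaning the labels do not give, and these numbers fall into 2 separate stretches of 13 and 7 arrays. They are called the first and second run here, though no label says that the arrays were handled apart. Each group has arrays in both, with a single Old CR array in the second. Between the runs 2934 genes differed, among them Foxo3, Foxo1 and Deptor.

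Insr encodes the insulin receptor. Its level was 7.55, 7.59, 8.40, 8.10 and 7.40 in Old CR-ND fibroblasts. It was 8.21, 8.28, 8.40, 8.53 and 8.05 in Old CR fibroblasts. It was 7.55, 7.58, 7.84, 8.06 and 7.57 in Old ND fibroblasts, and 7.58, 7.45, 7.98, 7.34 and 7.41 in Young ND fibroblasts. The Old CR arrays all lay above the Young ND arrays, and all but 1 of them lay above every Old ND array, the lowest Old CR array (8.05) falling just below the highest Old ND array (8.06). The Old CR-ND arrays were spread most widely, with replicates 3 and 4 among the Old CR values and the other 3 at 7.40 to 7.59. Insr was 0.74 ± 0.17 higher in Old CR than in Young ND fibroblasts (1.67-fold, limma, adjusted p = 0.00443). Between Old CR and Old ND the difference was 0.57 ± 0.17 (95% interval 0.23 to 0.92), which missed the threshold (limma, adjusted p = 0.0754). Between Old CR-ND and Old CR it was -0.49 ± 0.17 (95% interval -0.83 to -0.14, limma, adjusted p = 0.270).

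The Insr difference between Old CR and Old ND lies close to the threshold, and the setting decides its side. It passed with the mean of all Insr probe sets (0.52, limma, adjusted p = 0.0458), in a fit of those groups alone (limma, adjusted p = 0.0417), without Old ND replicate 4 (limma, adjusted p = 0.0423) and among the first-run arrays (0.70, limma, adjusted p = 0.0498). Among the second-run arrays, with 1 Old CR array, it was 0.24 (limma, adjusted p = 0.997), and with the run as a block it was 0.55 (limma, adjusted p = 0.0664). Against Young ND the Insr difference was 0.69 in the first run (limma, adjusted p = 0.0337), 0.68 in the second (limma, adjusted p = 0.278) and 0.72 with the run as a block (limma, adjusted p = 0.00443).

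Irs1 encodes an adaptor that carries the signal from the insulin and IGF receptors to PI3K. Its level ranged over 7.97 to 8.62 in Old CR-ND, 8.11 to 8.71 in Old CR, 7.90 to 8.25 in Old ND and 7.78 to 8.93 in Young ND fibroblasts, so that all groups overlapped. The Irs1 difference between Old CR and Old ND was 0.36 ± 0.17 (95% interval 0.01 to 0.71, limma, adjusted p = 0.334). Young ND mice were the most variable for this gene, with an SD of 0.45 against 0.14 in Old ND mice.

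Foxo1 and Foxo3 encode the forkhead factors that insulin signalling keeps out of the nucleus. Foxo1 averaged 6.51 ± 0.11 in Old CR-ND, 6.58 ± 0.18 in Old CR, 6.41 ± 0.19 in Old ND and 6.63 ± 0.23 in Young ND fibroblasts (SD, n = 5 each). It was the 1 member whose highest mean was in Young ND mice, and its difference between Old ND and Young ND was -0.22 ± 0.11 (limma, adjusted p = 0.241). Foxo3 averaged 9.54 ± 0.27 in Old CR-ND, 9.80 ± 0.26 in Old CR, 9.65 ± 0.33 in Old ND and 9.66 ± 0.34 in Young ND fibroblasts (SD, n = 5 each). All 4 group ranges overlapped for both genes. Between the runs, second minus first, Foxo3 differed by -0.47 (limma, adjusted p = 0.000612) and Foxo1 by -0.23 (limma, adjusted p = 0.0259), and the part of this in the spread within groups was not tested.

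Sirt1 encodes an NAD-dependent deacetylase that acts on FOXO proteins and other regulators. Its promoter window is shown because Sirt1 passed the test against Young ND; of the 8 windows at hand for the members it alone held more than 1 CACGTG. The window runs from 250 bases before the start site to 50 after it, in RefSeq's GRCm38.p6 sequence at chr10:63338986-63339285 on the minus strand, and capitals mark the letters CACGTG, the E-box, found at -115 and -43 from the start site.
Sirt1 promoter: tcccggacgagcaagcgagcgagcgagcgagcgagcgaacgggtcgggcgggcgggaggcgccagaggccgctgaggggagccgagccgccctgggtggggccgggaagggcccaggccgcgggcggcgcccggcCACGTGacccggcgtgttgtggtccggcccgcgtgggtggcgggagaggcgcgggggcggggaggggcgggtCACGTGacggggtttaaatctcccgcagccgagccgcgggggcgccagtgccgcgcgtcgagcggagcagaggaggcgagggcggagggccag
The E-box letters read the same on both strands, and each holds ACGTG, the core of the hypoxia element, on either strand. CACGTG is in 7.15% of the 32851 promoter windows in the RefSeq table, and a match describes the letters only.

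The level of Sirt1 was 8.12, 8.33, 8.34, 8.26 and 7.67 in Old CR-ND fibroblasts. It was 8.35, 8.75, 8.77, 8.47 and 8.64 in Old CR fibroblasts. It was 8.61, 7.84, 8.22, 8.33 and 8.21 in Old ND fibroblasts, and 7.68, 8.28, 8.25, 8.25 and 8.18 in Young ND fibroblasts. The lowest Old CR array was above every Old CR-ND and every Young ND array, while Old ND replicate 1 lay among the Old CR values. Sirt1 was 0.47 ± 0.15 higher in Old CR than in Young ND fibroblasts (1.38-fold, limma, adjusted p = 0.0402). That call was lost without Old CR replicate 2, 3, 4 or 5 or Young ND replicate 1, 4 or 5, with adjusted p up to 0.120, and with the arrays centred on their medians (limma, adjusted p = 0.0565). Within the runs the Sirt1 difference was 0.52 in the first (limma, adjusted p = 0.102) and 0.43 in the second (limma, adjusted p = 0.436), and 0.46 with the run as a block (limma, adjusted p = 0.0400). Between Old CR-ND and Old CR it was -0.45 ± 0.15 (95% interval -0.76 to -0.15, limma, adjusted p = 0.240), and between Old CR and Old ND it was 0.35 ± 0.15 (95% interval 0.05 to 0.66, limma, adjusted p = 0.251).

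Mtor encodes the kinase at the centre of both mTOR complexes. It averaged 8.06 ± 0.05 in Old CR-ND, 8.16 ± 0.11 in Old CR, 8.08 ± 0.10 in Old ND and 7.99 ± 0.10 in Young ND fibroblasts (SD, n = 5 each), with all ranges overlapping. Its difference between Old CR and Old ND was 0.08 ± 0.07, and the 95% interval of -0.06 to 0.22 is the narrowest of the 9 members for that comparison.

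Ddit4 encodes REDD1, a protein made under low oxygen, low energy or glucocorticoids that holds mTOR complex 1 down through the TSC complex. Its promoter window is shown because Ddit4 was the member with the largest differences. It lies at chr10:59951721-59952020 on the minus strand of GRCm38.p6 in RefSeq, and capitals mark ACGTG, the hypoxia core, at -187 from the start site.
Ddit4 promoter: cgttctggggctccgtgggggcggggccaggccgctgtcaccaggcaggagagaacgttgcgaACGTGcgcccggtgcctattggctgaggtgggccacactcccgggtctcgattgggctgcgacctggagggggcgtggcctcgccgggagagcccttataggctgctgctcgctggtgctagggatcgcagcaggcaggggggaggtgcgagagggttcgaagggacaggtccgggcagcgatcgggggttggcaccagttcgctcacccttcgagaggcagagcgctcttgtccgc
Both strands were searched for 6 motifs: GTAAACA (FOXO core), CACGTG (E-box), ACGTG (hypoxia core), TGACGTCA (cAMP response element), TGATGNAA (ATF4 amino acid response element) and the glucocorticoid response element. ACGTG is in 19.6% of all windows, and the other 5 strings are not in this Ddit4 window.

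The level of Ddit4 was 6.63, 6.79, 7.09, 6.20 and 6.56 in Old CR-ND fibroblasts. It was 7.03, 6.89, 7.57, 7.60 and 7.45 in Old CR fibroblasts. It was 6.85, 6.25, 6.69, 6.68 and 6.52 in Old ND fibroblasts, and 6.05, 6.09, 6.33, 6.38 and 6.32 in Young ND fibroblasts. Every Old CR array was above every Old ND and every Young ND array, and replicates 3, 4 and 5 of Old CR were above all other arrays. Old CR-ND replicate 3 reached the 2 lower Old CR values. Ddit4 rose by 0.71 ± 0.16 in Old CR relative to Old ND fibroblasts (1.64-fold, 95% interval 0.38 to 1.04, limma, adjusted p = 0.0193). It was 1.07 ± 0.16 higher in Old CR than in Young ND fibroblasts (2.11-fold, limma, adjusted p = 8.31e-05). Between Old CR-ND and Old CR the difference was -0.65 ± 0.16 (95% interval -0.98 to -0.33), which missed the threshold (limma, adjusted p = 0.0749). Between Old CR-ND and Old ND it was 0.06 ± 0.16 (95% interval -0.27 to 0.38, limma, adjusted p = 0.998). Between Old ND and Young ND it was 0.36 ± 0.16 (95% interval 0.04 to 0.69, limma, adjusted p = 0.160).

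The Ddit4 call between Old CR and Old ND rests on few arrays. It was lost without Old CR replicate 3 (limma, adjusted p = 0.0593), without Old CR replicate 4 (limma, adjusted p = 0.0613) and in a fit of those groups alone (limma, adjusted p = 0.0520), with differences of 0.62 to 0.81 over all arrays left out in turn. Within the runs the difference was 0.68 in the first (limma, adjusted p = 0.0614) and 0.85 in the second (limma, adjusted p = 0.468), and with the run as a block it was 0.70 (limma, adjusted p = 0.0154). Against Young ND it was 1.12 in the first run (limma, adjusted p = 0.00219) and 1.10 in the second (limma, adjusted p = 0.00799). The difference between Old CR-ND and Old CR passed with array weights (-0.64, limma, adjusted p = 0.0287) and without Old CR-ND replicate 3 (-0.76, limma, adjusted p = 0.0273).

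Ddit4 is known to answer to glucocorticoids and to cell stress, so lists of glucocorticoid-responsive and of immediate early genes were read beside it. The 8 measured glucocorticoid-responsive genes had a mean level of 9.78 in Old CR and 9.79 in Old ND fibroblasts. None passed the test, where 2.39% of all genes did. At an unadjusted p under 0.05 they went both ways, 2 higher and 2 lower in Old CR. Of all genes 9.46% were higher and 5.02% lower at that p. Zbtb16, a zinc finger factor, averaged 8.67 in Old CR and 8.02 in Old ND (difference 0.65 ± 0.21, limma, adjusted p = 0.121), and Mt1, a metallothionein, 12.74 and 12.55. Per1, a clock gene, averaged 7.80 in Old CR and 8.18 in Old ND (-0.38 ± 0.17, limma, adjusted p = 0.281), and Sgk1, a kinase, 10.20 and 10.52 (-0.32 ± 0.14, limma, adjusted p = 0.309). Fkbp5, a gene that glucocorticoids induce, averaged 7.99 in Old CR and 7.83 in Old ND fibroblasts (difference 0.16 ± 0.11, limma, adjusted p = 0.551). Relative to Young ND fibroblasts, at 7.39, Fkbp5 rose by 0.60 in Old CR (limma, adjusted p = 0.000612), by 0.44 in Old ND (limma, adjusted p = 0.00905) and by 0.49 in Old CR-ND (limma, adjusted p = 0.00605), and its part in the Ddit4 differences was not tested. Of 11 measured immediate early genes, which tissue handling is known to switch on, 1 passed, where 2.39% of all genes did. Egr2, an early growth response factor, fell by 0.64 ± 0.13 in Old CR relative to Old ND fibroblasts (limma, adjusted p = 0.0119). Its call was lost in a fit of those groups alone (limma, adjusted p = 0.0630). The Egr2 difference was -0.81 among first-run arrays and -0.25 among second-run arrays, where 1 array is Old CR. The mean of that list was 11.33 in Old CR, with arrays at 11.22 to 11.42, and 11.39 in Old ND fibroblasts, with arrays at 11.27 to 11.60.

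Sesn1 encodes sestrin 1, a protein that FOXO factors and p53 induce and that restrains mTOR complex 1. The first of its 2 promoter windows is shown because it holds the FOXO core, in a gene of the pathway that FOXO factors are known to turn on. It lies at chr10:41810324-41810623 on the plus strand of GRCm38.p6 in RefSeq, and capitals mark TGTTTAC, which is GTAAACA on the opposite strand, at +23 from the start site.
Sesn1 promoter: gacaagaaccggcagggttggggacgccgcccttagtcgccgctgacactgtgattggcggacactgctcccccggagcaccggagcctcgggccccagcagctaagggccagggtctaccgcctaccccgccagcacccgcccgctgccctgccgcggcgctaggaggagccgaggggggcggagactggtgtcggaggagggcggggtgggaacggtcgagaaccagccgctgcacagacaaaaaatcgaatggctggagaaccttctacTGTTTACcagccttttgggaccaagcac
GTAAACA is in 3.65% of all windows, and none of the other 6 members with a window holds it.

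The level of Sesn1 was 7.26, 7.08, 7.25, 7.07 and 6.55 in Old CR-ND fibroblasts. It was 7.31, 7.46, 7.15, 7.77 and 7.17 in Old CR fibroblasts. It was 6.88, 7.02, 7.15, 7.17 and 7.08 in Old ND fibroblasts, and 7.06, 6.88, 7.09, 6.73 and 7.16 in Young ND fibroblasts. Old CR replicates 1, 2 and 4 lay above all arrays of the other groups, and replicates 3 and 5 among them. The Sesn1 difference was 0.31 ± 0.13 between Old CR and Old ND (limma, adjusted p = 0.255), 0.39 ± 0.13 between Old CR and Young ND (limma, adjusted p = 0.0564) and -0.33 ± 0.13 between Old CR-ND and Old CR (limma, adjusted p = 0.368). The second of these passed with the mean of all Sesn1 probe sets (limma, adjusted p = 0.0384), with dim genes left out (limma, adjusted p = 0.0398), with array weights (limma, adjusted p = 0.0389), and without Old CR replicate 3 (limma, adjusted p = 0.0439) or Old CR replicate 5 (limma, adjusted p = 0.0417). Between Old CR and Old ND, Sesn1 differed by 0.41 among first-run arrays and by 0.05 among second-run arrays.

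Deptor encodes a protein that binds mTOR and inhibits both of its complexes. It averaged 10.07 ± 0.24 in Old CR-ND, 9.85 ± 0.21 in Old CR, 10.08 ± 0.19 in Old ND and 10.07 ± 0.22 in Young ND fibroblasts (SD, n = 5 each). It was the 1 member with its lowest mean under restriction. The ranges overlapped, at 9.59 to 10.03 in Old CR and 9.86 to 10.28 in Old ND, and the difference of -0.23 ± 0.13 missed the threshold (95% interval -0.50 to 0.04, limma, adjusted p = 0.441). Deptor also differed between the runs, by -0.26 for second minus first (limma, adjusted p = 0.0243).

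**Figure D2:**
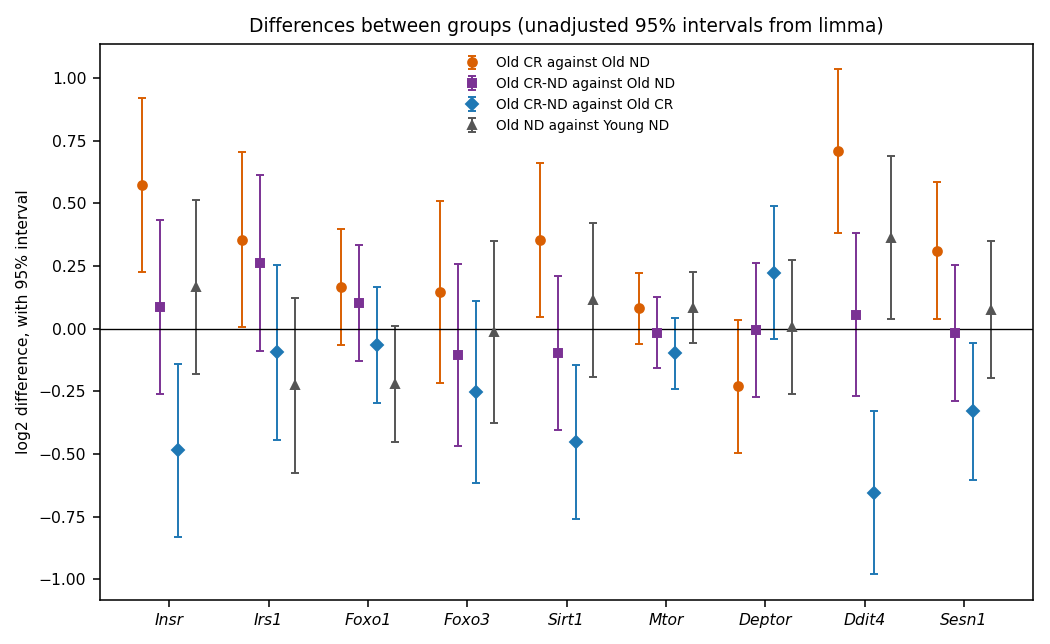
Difference in log2 level of each member in 4 of the comparisons, marked by colour and shape, with its 95% interval from limma before any adjustment for the number of genes. For Ddit4 the difference of Old CR against Old ND lies at 0.71 and that of Old CR-ND against Old CR at -0.65, while that of Old CR-ND against Old ND, at 0.06, has an interval on both sides of 0.

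Old CR against Old ND asks what restriction up to the time of collection does at the same age. Of the 9 members 1 rose, Ddit4, and 0 fell, where 2.39% of all genes passed, 1.57% rising and 0.819% falling. At an unadjusted p under 0.05 the count was 5, namely Ddit4, Insr, Irs1, Sirt1 and Sesn1, all higher in Old CR, where 14.5% of all genes reached that p and 9.46% were higher. The median difference of the members was 0.31, against 0.00 over all genes, and 8 of 9 were higher in Old CR. Old CR has 1 array in the second run and each other group has 2. With the run as a block the Foxo3 difference was 0.05, against 0.15 without it. For Irs1 it was 0.30 against 0.36, and for Foxo1 0.12 against 0.17. No member changed sign with the block, and Ddit4 had 0.70 against 0.71. Among second-run arrays the differences of Irs1, Foxo1 and Mtor were -0.02, -0.065 and -0.015. The arrays of Old CR and Old ND did not overlap for 1 member, Ddit4, and for 3.23% of all genes. The members were chosen with earlier results of these data known, so these counts are no independent test of the set.

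Old CR-ND against Old CR asks what 2 months of full feeding after restriction do, with a restriction period of the same length at different ages. By limma 0 of 9 members passed, where 0.333% of all genes did, and at an unadjusted p under 0.05 the count was 4 (Ddit4, Insr, Sirt1 and Sesn1), all lower in Old CR-ND, where 9.79% of all genes reached that p and 5.92% were lower. The median difference was -0.25, and 8 of 9 members were lower in Old CR-ND. With the run as a block the Foxo3 difference was -0.16, against -0.25 without it. For Irs1 it was -0.04 against -0.09, and for Foxo1 -0.02 against -0.06. The groups did not overlap for Sirt1 alone among the members, and for 2.17% of all genes. This comparison is also the test of whether the 2 restriction regimes differ in their distance from Old ND, and for Ddit4 that difference missed the threshold.

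Old CR-ND against Old ND asks whether a past restriction leaves a mark. By limma 0 of 9 members passed, at an unadjusted p under 0.05 also 0, where 0.00585% of all genes passed and 5.08% had an unadjusted p under 0.05. The median difference was -0.01, and the intervals leave room for changes of moderate size: for Insr the difference was 0.09 (95% interval -0.26 to 0.44) and for Irs1, the largest, 0.26 (95% interval -0.09 to 0.61). The arrays of the 2 groups overlapped for all 9 members, and failed to overlap for 0.48% of all genes.

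Old ND against Young ND asks what age does on full feeding. By limma 0 of 9 members passed, where 10.9% of all genes did, and at an unadjusted p under 0.05 the count was 1, Ddit4, where 23.0% of all genes reached that p. The median difference was 0.08, with 6 members higher and 3 lower in Old ND. The arrays overlapped for all 9 members, and failed to overlap for 7.38% of all genes.

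Old CR against Young ND sets restricted old mice beside young ones. Of the 9 members 3 rose, Ddit4, Insr and Sirt1, and 0 fell, where 12.7% of all genes passed, 7.11% rising and 5.56% falling. Those 3 were also the members whose arrays did not overlap, as for 10.4% of all genes. Genes of the marker lists also passed here. Tek, an endothelial receptor, averaged 5.98 in Old CR and 4.35 in Young ND fibroblasts (limma, adjusted p = 0.000542). The 5 endothelial genes averaged 5.41 in Old CR, with arrays at 5.28 to 5.62. In Young ND they averaged 5.19, with arrays at 4.82 to 5.39. Among those 5 genes 2 were higher in Old CR and the rest lower, with a median difference of -0.07. Cd68, a macrophage gene, averaged 7.76 in Old CR and 6.73 in Young ND (limma, adjusted p = 0.0390). The 6 leukocyte genes averaged 4.95 in Old CR, with arrays at 4.86 to 5.03. In Young ND they averaged 4.82, with arrays at 4.71 to 4.93. Among those 6 genes 2 were higher in Old CR and the rest lower, with a median difference of -0.03. Among 7 fibroblast genes the collagen genes Col1a1 and Col3a1 fell, by 0.50 (limma, adjusted p = 0.000156) and 0.35 (limma, adjusted p = 0.000917). Of those 7 genes 3 were higher in Old CR and the rest lower, with a median difference of -0.08. Among 11 immediate early genes Junb and Ier3 rose, by 0.48 (limma, adjusted p = 0.0403) and 0.41 (limma, adjusted p = 0.00420), and the list averaged 11.33, with arrays at 11.22 to 11.42, in Old CR and 11.14, with arrays at 11.08 to 11.19, in Young ND. The part of these genes in the rise of Ddit4, Insr and Sirt1 and in the pathway gene calls was not tested. Old CR-ND against Young ND gave 0 of 9 by limma, 1 at an unadjusted p under 0.05 (Ddit4), where 7.04% of all genes passed, 3.22% rising and 3.82% falling, and 19.2% had an unadjusted p under 0.05. The Ddit4 difference there was 0.42 ± 0.16 (limma, adjusted p = 0.125), and it passed without Old CR-ND replicate 4 (limma, adjusted p = 0.0427). Comparisons with Young ND share the 5 Young ND arrays, those with Old ND share the 5 Old ND arrays and those with Old CR share the 5 Old CR arrays, so a member's values in them are not independent.

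Ordered by their group means, 7 of 9 members were highest in Old CR, where 27.4% of all genes were, the exceptions being Foxo1 and Deptor. That count rests on the chosen probe sets. It also leans on the run for Foxo3, whose difference between Old CR and Young ND was 0.04 with the run as a block, against 0.13 without it. The other Foxo3 probe sets were highest in Old ND, and the other Mtor probe sets in Old CR-ND or Old ND. For Insr and Sesn1 the other probe sets were also highest in Old CR. Of the 27 steps between groups that follow each other in a member's order, 6 were larger than the larger SD of the pair. Of those 6 steps, 5 had Old CR on one side. The other steps were within the spread of the mice. No share over all genes was taken for such steps, so these counts describe the members only.

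Several members have more than 1 probe set, and these show how far the chosen one speaks for the gene. Irs1, Foxo1, Sirt1 and Ddit4 have only 1, so no second probe set could be read for them. Of 20 probe sets, 13 were higher and 7 lower in Old CR than in Old ND. Among them 2 rose, that of Ddit4 and the third of Sesn1, where 2.13% of all 28898 single-gene probe sets passed. The third Sesn1 probe set rose by 0.59 ± 0.15 (limma, adjusted p = 0.0405), at levels of 4.90 to 5.52 in Old CR and 4.52 to 5.07 in Old ND fibroblasts that lie below the median gene level. The second Sesn1 probe set had a difference of 0.47 ± 0.20 (limma, adjusted p = 0.273). The other 2 Insr probe sets had differences of 0.62 ± 0.20 (limma, adjusted p = 0.114) and 0.38 ± 0.12 (limma, adjusted p = 0.115). Against Young ND, where Insr passed at 0.74, the same 2 probe sets had 0.51 ± 0.20 and 0.25 ± 0.12, and neither passed (limma, adjusted p up to 0.211). All 4 Deptor probe sets were lower in Old CR than in Old ND, by -0.06 to -0.34 on the log2 scale, and higher in Old CR-ND than in Old CR, by 0.17 to 0.48, none past the threshold. The other 2 Foxo3 probe sets had differences of -0.06 and -0.06, opposite in sign to the chosen one at 0.15.

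**Figure D3:**
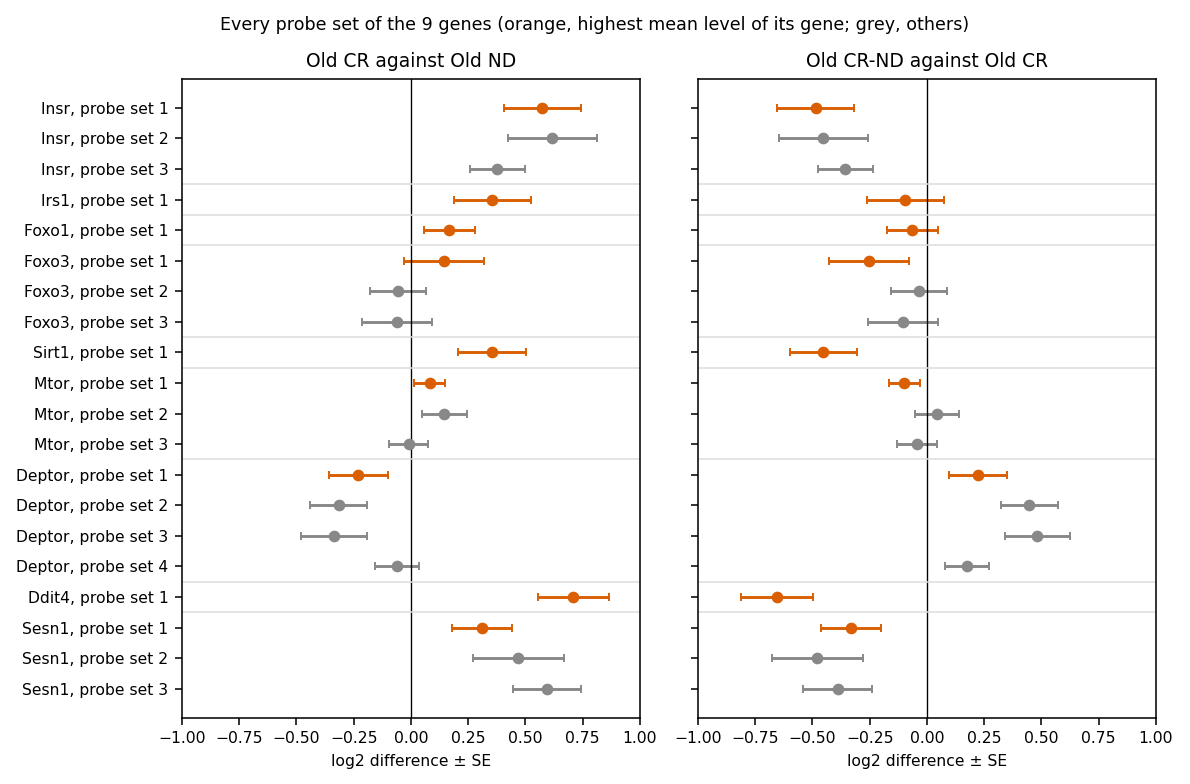
Difference in log2 level, with its SE from limma, for each of the 20 probe sets of the 9 members, for Old CR against Old ND (left) and Old CR-ND against Old CR (right); the probe set used for a member is orange and the others are grey. On the left the 3 Insr and 3 Sesn1 probe sets lie above 0 and the 4 Deptor probe sets below it.

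Beside the members, 109 genes in 7 lists of the same pathways were read, of which 95 were measured. The lists too were chosen with earlier results of these data known. Between Old CR and Old ND 2 of the 95 rose and 0 fell, where 1.57% of all genes rose and 0.819% fell. The median difference of the 95 was 0.09. Grb14, an adaptor that inhibits the insulin receptor, rose by 0.78 ± 0.14 (limma, adjusted p = 0.00517), with means of 5.34 in Old CR and 4.56 in Old ND fibroblasts, below the median gene level. Its call was lost in a fit of those groups alone (limma, adjusted p = 0.0612), and the difference was 1.00 among first-run arrays and 0.37 among second-run arrays. Bnip3, a mitophagy receptor that FOXO3 and hypoxia induce, rose by 0.82 ± 0.18 (limma, adjusted p = 0.0213), with means of 8.82 in Old CR and 8.00 in Old ND. The Bnip3 call was lost without Old CR replicate 2, 3 or 4 or Old ND replicate 1 or 3, with adjusted p up to 0.0620, and the difference was 1.10 among first-run arrays and 0.13 among second-run arrays, where 1 array is Old CR. By list, 1 of 17 genes of the receptor, PI3K and AKT arm and 1 of 19 FOXO family and target genes passed. None passed of 8 other mTOR complex subunits, 23 genes of the TSC, RHEB, RAG and GATOR relay, 14 substrates and outputs of mTOR complex 1, 10 AMPK genes and 4 sirtuin and NAD genes. All 8 of the mTOR complex subunits were higher in Old CR, with a median of 0.17 against 0.00 over all genes. Only 1 of these 8 had an unadjusted p under 0.05. At an unadjusted p under 0.05, 14 of the 95 genes were higher and 3 lower in Old CR, where 9.46% of all genes were higher and 5.02% lower.

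Between Old CR-ND and Old ND, and between Old CR-ND and Old CR, 0 of the 95 pathway genes passed by limma. Of all genes 0.00585% passed in the first comparison and 0.333% in the second. At an unadjusted p under 0.05 the first comparison had 2 genes higher and 0 lower in Old CR-ND, where 3.12% of all genes were higher and 1.95% lower. The second had 1 higher and 6 lower, where 3.87% of all genes were higher and 5.92% lower. Grb14 had a difference of -0.63 ± 0.14 between Old CR-ND and Old CR (limma, adjusted p = 0.0532), with no overlap of the arrays.

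With age on full feeding, between Old ND and Young ND, 3 of the 95 list genes rose and 10 fell, with a median of -0.04, where 4.45% of all genes rose and 6.49% fell. The other 82 did not pass. Among the adaptors Grb10, an inhibitor of insulin and IGF signalling, fell by 0.53 (limma, adjusted p = 0.00151). Among the complex subunits Prr5, a part of mTOR complex 2, fell by 0.83 (limma, adjusted p = 0.00301). In the relay Lamtor2 and Lamtor3, which anchor the RAG proteins on lysosomes, fell by 0.53 and 0.52 (limma, adjusted p = 0.00174 and 0.00443), and Flcn, a RAG regulator, fell by 0.40 (limma, adjusted p = 0.0189). Among the outputs Eif4ebp1, the translation repressor that mTOR complex 1 inactivates, fell by 0.41 (limma, adjusted p = 0.00320), and Eif4e, the cap-binding protein it holds, fell by 0.59 (limma, adjusted p = 0.0248). Eif4b, another initiation factor, rose by 0.34 (limma, adjusted p = 0.00275), and Lpin1, a lipid phosphatase, rose by 0.63 (limma, adjusted p = 0.0107). Among AMPK genes Stk11, which encodes the upstream kinase LKB1, rose by 0.56 (limma, adjusted p = 0.00423), while Prkag2, a gamma subunit, fell by 0.59 (limma, adjusted p = 0.00565) and Camkk2, another upstream kinase, fell by 0.32 (limma, adjusted p = 0.0346). With the mean of its probe sets Stk11 had 0.23 (limma, adjusted p = 0.159). The call was lost for Camkk2 without Old ND replicate 2, 4 or 5 or Young ND replicate 1, 2 or 3 (adjusted p up to 0.0966), for Eif4e without Old ND replicate 2 or 3 or Young ND replicate 1 or 5 (up to 0.0723), and for Flcn without Old ND replicate 2 or 5 or Young ND replicate 4 (up to 0.0583). In a fit of Old ND and Young ND alone the calls for Camkk2, Eif4e and Flcn were lost (limma, adjusted p = 0.120, 0.0593 and 0.0552). Each age call named here was also lost within the first or the second run, which hold fewer arrays, though no difference turned sign.

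Between Old CR and Young ND 10 of 95 pathway genes rose and 8 fell, where 7.11% of all genes rose and 5.56% fell. Named here are up to 2 genes of each list, by smallest adjusted p. Of the 14 measured substrates and outputs of mTOR complex 1, 3 rose and 4 fell. Lpin1 rose by 0.88 (limma, adjusted p = 0.000605) and Eef2k, the kinase that slows translation elongation, by 0.58 (limma, adjusted p = 0.00197). Bnip3 rose by 0.97 (limma, adjusted p = 0.00111), and Txnip, a FOXO target that limits glucose uptake, by 0.78 (limma, adjusted p = 0.0213). Tsc1, a subunit of the TSC complex, rose by 0.41 (limma, adjusted p = 0.00614), Igf1r, the IGF1 receptor, by 0.37 (limma, adjusted p = 0.0205) and Stk11 by 0.55 (limma, adjusted p = 0.00449). Prkab2, an AMPK beta subunit, fell by 0.74 (limma, adjusted p = 0.00368), and Lamtor2 fell by 0.32 (limma, adjusted p = 0.0454). Grb14 rose by 0.58 (limma, adjusted p = 0.00803). With the mean of their probe sets Tsc1 had 0.15 (limma, adjusted p = 0.244) and Stk11 0.25 (limma, adjusted p = 0.0957), so that both calls were lost. The call was lost for Txnip without Old CR replicate 1 or 3 or Young ND replicate 4 or 5 (adjusted p up to 0.0663), for Igf1r without Old CR replicate 2, 3 or 4 or Young ND replicate 5 (up to 0.0687), and for Lamtor2 without any of 7 arrays, all but Old CR replicate 2 and Young ND replicates 3 and 4 (up to 0.130). In a fit of Old CR and Young ND alone the calls for Igf1r and Lamtor2 were lost (limma, adjusted p = 0.0525 and 0.0538).

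In Old CR-ND relative to Young ND fibroblasts 5 of 95 rose and 6 fell, where 3.22% of all genes rose and 3.82% fell. Eif4b rose by 0.33 (limma, adjusted p = 0.00549), Eef2k by 0.45 (limma, adjusted p = 0.0230) and Stk11 by 0.44 (limma, adjusted p = 0.0324). Prkag2 fell by 0.57 (limma, adjusted p = 0.00971), Grb10 by 0.38 (limma, adjusted p = 0.0266), Lamtor2 by 0.41 (limma, adjusted p = 0.0187) and Lamtor3 by 0.41 (limma, adjusted p = 0.0305). Of these 7 calls, those for Eif4b and Prkag2 held without any single array. Within the first run the Prkag2 difference was -0.50 (limma, adjusted p = 0.123) and that of Eif4b 0.36 (limma, adjusted p = 0.0488). The other 5 were lost without at least 3 arrays each, Young ND replicate 2 among them for Stk11, Grb10, Lamtor2 and Lamtor3 and Young ND replicate 1 for Eef2k, with adjusted p up to 0.0963. With the mean of their probe sets Stk11 had 0.17 (limma, adjusted p = 0.359) and Grb10 -0.27 (limma, adjusted p = 0.0843). Whether the list genes differ from the members in their response to age was not tested.

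**Figure D4:**
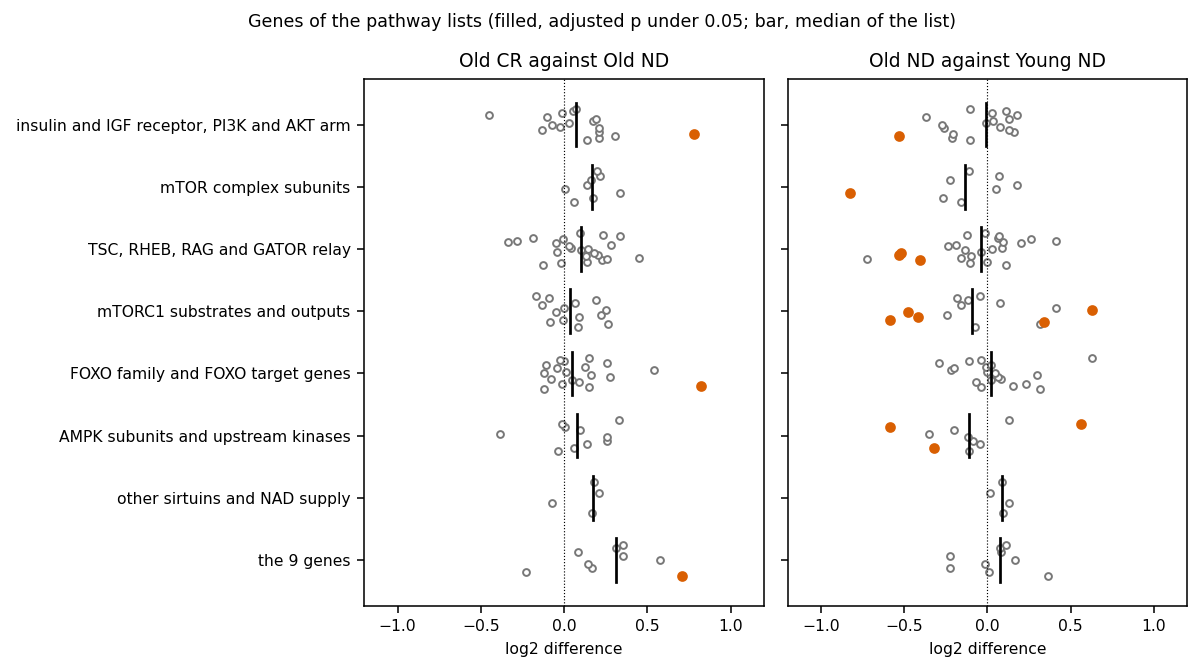
Difference in log2 level of every measured gene of the 7 pathway lists and of the 9 members, for Old CR against Old ND (left) and Old ND against Young ND (right); each point is a gene, filled where adjusted p was under 0.05, and bars are list medians. Of the 95 list genes, 2 filled points lie above 0 on the left, and 3 above and 10 below 0 on the right.

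The genes whose pattern over the 20 arrays was closest to that of a member were found by the mean absolute difference after each gene was centred on its own mean, among 8547 genes above the median level. For Ddit4 these were Cdkn1c, an inhibitor of cell cycle kinases, at 0.202, Hacl1, an enzyme of peroxisomal fatty acid breakdown, at 0.211, and Nop58, a core protein of nucleolar RNA particles, at 0.211, where the median gene lay at 0.391. Cdkn1c averaged 7.65 in Old CR-ND, 8.12 in Old CR and 7.72 in Old ND fibroblasts. For Insr the closest were AW549877 at 0.161, Swap70, an actin-binding signalling protein, at 0.164 and Stard9, a kinesin, at 0.168, where the median gene lay at 0.353. Swap70 averaged 7.40 in Old CR-ND, 7.80 in Old CR and 7.31 in Old ND fibroblasts.

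Markers of other skin cells were read beside the difference between Old CR and Old ND. The mean level of the 6 leukocyte genes, all of them measured, was 4.95 in Old CR, with arrays at 4.86 to 5.03, and 5.11 in Old ND, with arrays at 5.01 to 5.18. Within that list Cd74, the MHC class II chaperone, fell by 0.61 ± 0.15 (limma, adjusted p = 0.0276), a call lost without Old CR replicate 2, 3 or 4 or Old ND replicate 4 or 5, with adjusted p up to 0.0898. The 6 keratinocyte genes averaged 6.70 in Old CR, with arrays at 6.39 to 7.00, and 6.72 in Old ND, with a wider range of 6.03 to 7.94. The 5 endothelial genes averaged 5.41 in Old CR, with arrays at 5.28 to 5.62. In Old ND they averaged 5.25, with arrays at 4.89 to 5.58. Of the 5 genes 2 were higher in Old CR and the rest lower, with a median difference of -0.13. The part of leukocyte and endothelial RNA in the Ddit4 difference was not tested.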

How the data were processed

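RNA of sorted dermal fibroblasts from 20 mice was measured on Affymetrix mouse arrays. The deposited values are log2 levels for each probe set, which the authors obtained with RMA in affy, per the submitters' processing notes; the versions are not given in the sources used here. They have 2 decimals and lie between 2.71 and 13.46. Arrays have no sequencing depth; their number sets the precision.

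Of 45141 probe sets, 28898 named 1 gene, 551 several and 15692 none, and those naming several or none were left out. Symbols were updated through a RefSeq table of GRCm38.p6, which matched 28689 probe sets, and the probe set with the highest mean was kept for each of 17097 genes. All 20 arrays were fitted in limma 3.58.1 (R 4.3.3; lmFit, then eBayes), using a mean per group, no covariate and no filter on dim genes. The 6 comparisons were tested two-sided and adjusted by Benjamini-Hochberg over all genes, with a threshold of 0.05. The pipeline was tested on simulated data.

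All members are named. From each pathway list, up to 4 genes that passed, taken by smallest adjusted p, are named in the 3 comparisons with Old ND on one side, and up to 2 in the other 3. Context and marker genes are named where they define a cell type or stand beside a member. The members and lists were chosen with earlier results of these data known. The alternatives were array weights, the run (set by the numbers in the sample titles), a filter on dim genes, normalization, probe set choice, leaving out each array, the arrays fitted, the variance model and the threshold. Promoter windows, 300 bases long, came from RefSeq and were at hand for 7 members.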

Additional observations from a re-analysis of the deposited data

Results flagged for a closer look

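Among 36 groups of 5 arrays, 4 held a highest or lowest array far from the rest by Dixon's test, where chance flags about 1 in 20 groups. Foxo1 in Old ND fibroblasts was highest in replicate 1, at 6.74, with the next array at 6.40 and the lowest at 6.29. Sirt1 in Young ND fibroblasts was lowest in replicate 1, at 7.68, with the next array at 8.18. Foxo3 in Old CR-ND fibroblasts was lowest in replicate 5, at 9.08, with the next array at 9.55. Sesn1 in Old CR-ND fibroblasts was lowest in the same replicate, at 6.55, with the next array at 7.07. Old CR-ND replicate 5 was the lowest array of its group for 6 of the 9 members. Without it the difference between Old CR-ND and Old CR was -0.33 for Sirt1 (limma, adjusted p = 0.587), -0.21 for Sesn1 (limma, adjusted p = 0.798) and -0.14 for Foxo3 (limma, adjusted p = 0.967).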

How the results depend on the processing

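Each of the 54 differences of a member was recomputed under 21 other settings, 1134 values in all. Of these, 1093 kept their direction and their side of the threshold, 16 lost a call, 12 gained one and 13 turned sign. A further 66 turned sign within 1 SE with no call on either side and are counted as kept. For Old CR against Old ND, 1 member passed, against 0 at a threshold of 0.01, 2 at 0.10, 2 with the mean of all probe sets, 0 within the second run, and 0 to 2 with an array left out: 0 without Old CR replicate 3 or 4 and 2 without Old ND replicate 4. Within the first run the 1 member was Insr and not Ddit4. For Old CR-ND against Old CR, 0 passed, against 1 at a threshold of 0.10, 1 with array weights and 0 to 1 with an array left out, the 1 being Ddit4. For Old CR against Young ND, 3 passed, against 4 with dim genes left out, the mean of all probe sets, array weights or a threshold of 0.10 (Sesn1 added), 2 within the first run, with centred arrays or at 0.01 (Sirt1 lost), 1 (Ddit4) within the second run and 2 to 3 with an array left out. For Old CR-ND against Young ND, 0 passed, and 0 to 1 with an array left out. The test for any difference passed for 2 members, and for 1 to 2 with an array left out, a setting chosen after seeing the data. No member passed in the other comparisons under any setting. The differences that turned sign were all uncalled: with the mean of all probe sets, Insr in Old ND against Young ND, -0.024; within the first run, the same difference, -0.0133, Sesn1 in Old CR-ND against Old ND, 0.18, and Irs1 in Old CR against Young ND, -0.045. Within the second run they were Irs1 in Old ND against Young ND, 0.245; Irs1, Foxo1 and Mtor in Old CR against Old ND, -0.02, -0.065 and -0.015; Irs1 and Ddit4 in Old CR-ND against Old ND, -0.08 and -0.22; Foxo1 in Old CR-ND against Old CR, 0.145; and Sirt1 and Sesn1 in Old CR-ND against Young ND, -0.25 and -0.135. The second run has 7 arrays, 1 of them Old CR, whose spread was taken from the rest; the cause of the other changes was not tested. Of the 95 pathway genes, 13 passed between Old ND and Young ND (5 to 20 over all settings), 2 between Old CR and Old ND (0 to 5), 18 between Old CR and Young ND (1 to 25) and 11 between Old CR-ND and Young ND (2 to 17). Of 95 genes, 0 passed between Old CR-ND and Old ND under any setting, and 0 to 2 between Old CR-ND and Old CR. No paired analysis was made, since each array is from a different mouse and the labels give no pairing.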

Other observations

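Old CR mice were the only old mice under restriction when they were collected, and a comparison of them with the mean of both other old groups was made after the values had been seen. Ddit4 was 0.68 ± 0.14 higher in Old CR (limma, adjusted p = 0.0104), where 2.27% of all genes passed. The difference was 0.53 ± 0.14 for Insr (limma, adjusted p = 0.0582), 0.40 ± 0.13 for Sirt1 (limma, adjusted p = 0.109), 0.32 ± 0.11 for Sesn1 (limma, adjusted p = 0.159) and -0.23 ± 0.11 for Deptor (limma, adjusted p = 0.360). Of the 5 Old CR arrays, 3 lay above all 10 other old arrays for Ddit4, 3 for Sirt1 and 3 for Sesn1, against 1 each for Insr, Irs1, Foxo3 and Mtor and 0 for Foxo1 and Deptor. At least 3 did so for 5.81% of all genes.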
